A study of Caenorhabditis elegans with 2 samples.

Results

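The cuticle collagen genes of Caenorhabditis elegans were examined in a chromatin map of a tagged tag-97 protein made from whole L4 larvae. The 168 genes were the protein-coding genes of the WBcel235 gene models named col, 156 in all, and 12 genes named after the body shapes of their mutants, dpy-2, dpy-3, dpy-5, dpy-7, dpy-8, dpy-10, dpy-13, rol-6, sqt-1, sqt-3, bli-1 and bli-2. They were set beside the other 19805 of 19973 nuclear protein-coding genes. RefSeq gave 160 of them a cuticle collagen product and 8 a collagen product. In 167 the annotated protein held at least 10 Gly-X-Y triplets in unbroken runs of 3 or more, against 26 of the other genes. The triplet is the repeat that forms the collagen triple helix, and it was counted only where X and Y were not glycine. The exception was col-17, with 0 such triplets when its coding sequence was read from the first annotated base. The annotated phase was not used. The collagen proteins had a median of 48.0 such triplets in 304 residues.

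The animals were of strain OP719, which carried wgIs719, a transgene of tag-97 joined to TY1, EGFP and 3xFLAG tags, and an unc-119(+) rescue in an unc-119 (tm4063) background. The labels also name svh-5 as the targeted gene. Both replicates were of this group, were 66 hours old and had been synchronised as starved L1 larvae after bleaching, and chromatin sheared to between 200 and 800 bp was precipitated with an antibody against GFP. No untagged or other control group was analysed here, so no contrast between conditions exists. In whole animals the hypodermis, where most cuticle collagens are made, is mixed with every other tissue, and binding in few cells cannot be told apart from weak binding in many.

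The cuticle is the collagen-rich outer coat of the worm. The hypodermis beneath it secretes a new cuticle before each moult, and collagen genes are switched on in waves during each larval stage, so that L4 animals are preparing the adult cuticle. The collagens are modified by prolyl hydroxylases and disulfide isomerases, cut by proteases and cross-linked through tyrosines. Loss of particular members leaves animals short and fat (dpy), helically twisted (rol, sqt) or blistered (bli).

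The starting point was the joint ranking deposited for the 2 replicates, which lists 118176 regions. Each has a signal, a peak-calling value whose scale the sources used here do not state, and an irreproducible discovery rate (IDR), which is low where a region holds its rank between inputs. The median signal over all ranked regions was 18.6. Few ranked regions held their rank by this measure, since 1231 had an IDR of 0.05 or less and 321 stood in the joint thresholded list. For each gene the region with the highest signal was taken whose summit lay in the promoter window, from 1000 bp before the annotated start of the gene to 200 bp after it. Signals of the joint ranking and of each replicate's own list are on their own scales, so their sizes cannot be compared between these lists.

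At their promoter windows the collagen genes had counts and signals near those of other genes. A ranked region was present at 140 of 168 collagen genes (83.3%, exact binomial 95% interval 76.8% to 88.6%, for counting error only), beside 80.6% of all protein-coding genes. In the replicates' own rankings the shares were 58.3% in replicate 1 and 59.5% in replicate 2, beside 52.9% and 57.7%. The highest signal ran from 2.64 to 53.2 with a median of 22.2, beside a median of 23.4 at other genes. The median collagen gene stood at percentile 45.2 among the other genes, a difference in medians of -1.16. With regions under the median signal of all ranked regions left out, the direction turned, to percentile 56.9 and a difference of 1.55. That filter acts on the compared signal itself. It kept 85 of the 140 collagen genes (60.7%) beside 68.8% of other genes with a region, so both sets were cut unequally. In replicate 1's own list, on its own scale, the difference was -0.392. Above the 90th percentile of other genes, a signal of 38.8, lay 14 of the 140, which is 10% and the same as the background of 10%. The gene just inside that limit was col-43 at 39.3 and the one just outside was col-139 at 38.1.

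**Figure D1:**
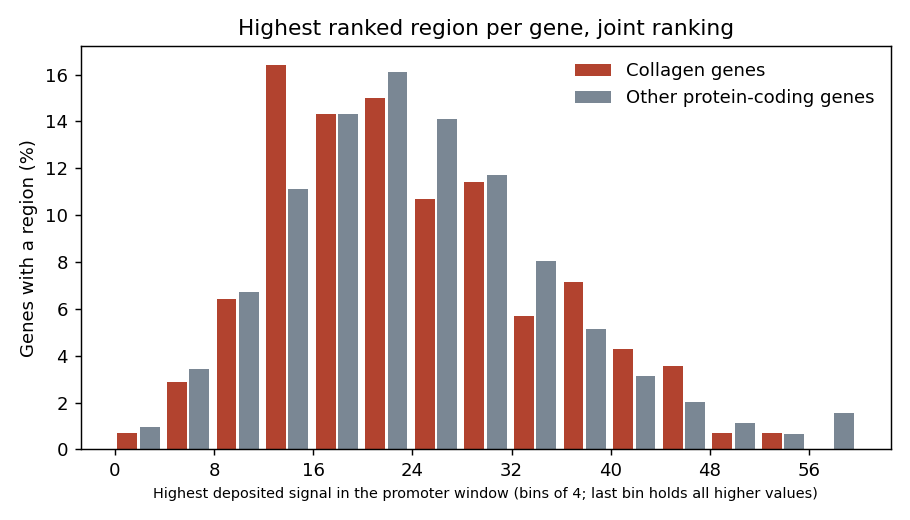
Share of genes with a region (percent, y axis) by the highest deposited signal in the promoter window (x axis, bins of 4, the last holding all higher values), for 140 collagen genes and 15968 other protein-coding genes. The distributions lie over each other, with 16.4% of collagen and 11.1% of other genes between 12 and 16, and 0 collagen genes in the last bin, which holds 1.55% of other genes.

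None of the collagen genes reached the authors' thresholds at its promoter. The joint thresholded list held 0 regions in the 168 windows, against a background of 0.756% of protein-coding genes, at which rate 1.28 collagen genes would be counted. The limit from the exact binomial interval was 2.17%, so 0 of 168 lies within what the background allows. The conservative list, made by ranking the replicates against each other, also held 0 (background 0.461%), as did the lists of replicate 1 (0.195%) and replicate 2 (0.180%). At an IDR of 0.01 or less there were also 0 (background 0.766%). At an IDR of 0.05 or less there was 1 collagen gene, col-46, against a background of 1.68% or 2.84 genes at the rate of other genes.

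The annular furrow collagens DPY-2, DPY-3, DPY-7, DPY-8 and DPY-10 build the circumferential furrows of the cuticle, and their loss shortens the animal. At dpy-2 the joint signal was 31.0, and the overlapping regions had 17.8 in replicate 1 and 16.6 in replicate 2. At dpy-8 the values were 23.5 jointly, 4.68 in replicate 1 and 12 in replicate 2. Support thus differed within the group, with overlapping regions in both replicates only at dpy-2 and dpy-8 (joint IDR 0.376 and 0.544). At dpy-3 the joint signal was 19 with no overlapping region in either replicate, and at dpy-10 it was 10.7 with 12.1 in replicate 2 alone. At dpy-7 no region had its summit in the window in any of the 4 rankings. The group's median of 21.3 stood at percentile 41.5, below the median of other genes.

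The dpy-2 summit lay 762 bp upstream of the gene and is shown, with col-85 and dpy-13, as an example of a named member with regions in both replicates. Each run holds the summit base and 50 bases on either side of it, on the WBcel235 assembly (ce11), read on the gene's strand from the RefSeq genome, and capitals mark any match to the 5 words searched, on either strand: TGATAA (the core word of GATA-type factors), AGGTCA (a half-site of many nuclear hormone receptors), GTGAAAG (part of a Blimp-type word), TATAAA (found in many core promoters) and GGCCTA (a word noted earlier in these data).
dpy-2 (chrII:6713480-6713580, plus strand): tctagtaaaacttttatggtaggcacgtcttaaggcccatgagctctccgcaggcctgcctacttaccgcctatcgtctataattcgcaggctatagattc
dpy-13 (chrIV:4235733-4235833, plus strand): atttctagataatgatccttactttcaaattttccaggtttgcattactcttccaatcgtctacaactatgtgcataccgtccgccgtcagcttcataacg
col-85 (chrII:12495778-12495878, minus strand): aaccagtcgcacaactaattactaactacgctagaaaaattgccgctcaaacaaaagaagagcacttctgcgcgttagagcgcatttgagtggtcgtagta

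The letters shown for dpy-2, dpy-13 and col-85 held none of the 5 words. In such runs around all summits AGGTCA was found at 4.29% of collagen and 2.59% of other genes. TGATAA was found at 5.71% and 8.41%, TATAAA at 9.29% and 9.16%, GTGAAAG at 0.714% and 1.36%, and GGCCTA at 1.43% and 2.12%. In the whole 1200 bp window, which does not depend on the ranked regions, AGGTCA was present at 38.1% of collagen genes (interval 30.7% to 45.9%) and 26.6% of others. TATAAA was present at 89.9% (84.3% to 94.0%) and 79.9%. The windows' median GC content was 35.7% and 34.9%. A match is a run of letters and not a bound site.

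Among the other body-shape collagens, DPY-5, DPY-13 and SQT-3 shape body length and ROL-6 and SQT-1 are known for mutants that roll. At dpy-13 the joint signal was 37.4, with 22.7 in replicate 1 and 19.6 in replicate 2. Its summit lay 169 bp inside the gene. At dpy-5 it was 32.5, with 14.5 and 23.9, and its summit lay 157 bp inside the gene in its coding sequence. Both genes had regions in both replicates, but their IDR was 0.232 and 0.324. At sqt-3 the signal was 18.3 with 16.4 in replicate 2 alone, and at rol-6 it was 13.7 with 10.5 in replicate 2 alone. At sqt-1 no joint region lay in the window, although replicate 1's own list had one with a signal of 9.98 there. The group's median was 25.4.

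The struts that join the layers of the adult cuticle need BLI-1 and BLI-2, whose loss lets the adult cuticle blister. At bli-1 the joint signal was 41.8, with 20.4 in replicate 1 and 21.8 in replicate 2, which put it at percentile 93.3. At bli-2 it was 14.8, with 6.86 in replicate 2 and no region in replicate 1, at percentile 18.3. These strut genes, whose products act in the same structure, therefore lay far apart in the range. The region's sequence aligned to 5 places in the genome for bli-1 and to 13 for bli-2. The bli-1 summit lay 922 bp upstream, in the coding sequence of the neighbouring collagen gene col-80.

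Of the collagens tied to a stage, the adult genes col-7 and col-19 had little. At col-7 the joint signal was 17.3 with no region in either replicate, and col-19, a widely used marker of the adult hypodermis, had no region in its window. The dauer-linked genes differed from each other. At col-40 the joint signal was 30.2, with 29.2 in replicate 1 and 18.1 in replicate 2. At col-2 it was 20.5, with 10 in replicate 1 alone. The dauer gene col-6 is not in the gene models used here. At col-99, which encodes a transmembrane collagen, the signal was 15.7, with 11.4 and 13.5, and that region's sequence aligned to 1038 places in the genome.

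For sqt-1 and col-19, which are among the genes of known role without a joint region, 150 bases before the annotated start are shown for comparison, with the same words in capitals.
sqt-1 (chrII:11337838-11337987, minus strand): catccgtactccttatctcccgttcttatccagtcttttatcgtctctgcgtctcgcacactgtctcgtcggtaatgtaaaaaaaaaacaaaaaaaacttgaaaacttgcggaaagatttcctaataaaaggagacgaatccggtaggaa
col-19 (chrX:421557-421706, plus strand): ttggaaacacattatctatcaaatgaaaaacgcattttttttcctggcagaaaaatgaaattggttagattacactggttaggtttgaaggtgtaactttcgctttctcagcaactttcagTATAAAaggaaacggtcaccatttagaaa
Of these the run before col-19 held TATAAA and the run before sqt-1 held none of the 5 words.

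The 10 highest collagen signals belonged to col genes. The first was col-46 at 53.2, with 15.1 in replicate 1 and 28.4 in replicate 2 and an IDR of 0.0374. Its summit lay 767 bp upstream, and the region's sequence aligned to 824 places in the genome; the part of these copies in the signal was not tested. The next was col-176 on X at 49.2, with 21.3 and 19.8, in the gene's own coding sequence 88 bp after its start. At col-85 the signal was 47.9, with 22.5 and 21.2 (IDR 0.608). Each of these leaders had an overlapping region in both replicates.

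Then came col-111 at 45.3, with 17.2 in replicate 1 and 21.3 in replicate 2, in a sequence with 15 genomic places. At col-72 the joint signal was 45.1, with 22.6 and 22.5, in a sequence with 75 places. At col-34 it was 45.1, with 19.7 and 13.6. Copies of the sequence elsewhere were thus present at several leading members. Over all window regions, the shares with 10 or more places were close, 9.29% at collagen and 8.79% at other genes. At col-92 the signal was 44.1 with 22.8 in replicate 1 alone, and at col-39 it was 42.1 with 26.6 in replicate 2 alone. At col-84 it was 43.4, with 15.4 and 22.2. At col-109 it was 42.1, with 29.4 and 14. The IDR of these 7 genes lay between 0.148 and 0.359. The 3 lowest signals, at col-116 (2.64), col-138 (4.29) and col-14 (5.33), stood at or below percentile 1.78.

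**Figure D2:**
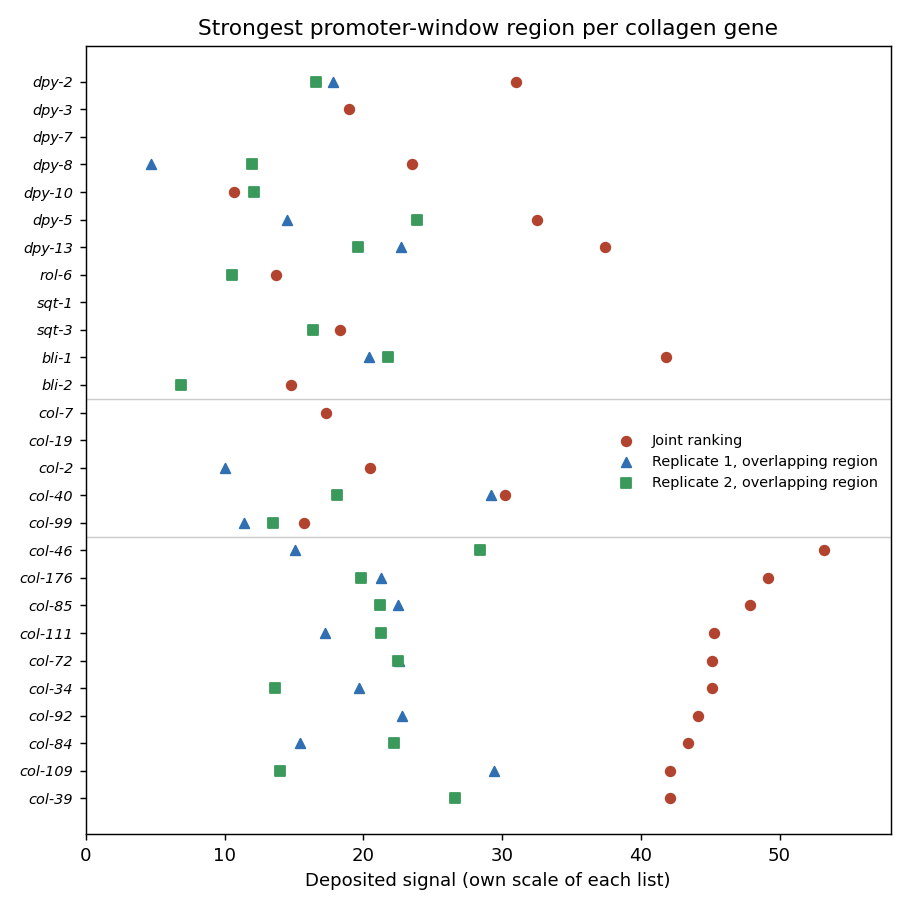
Deposited signal (x axis, each list on its own scale) of the strongest promoter-window region of the 12 genes with mutant names, 5 genes of a known stage or type and the 10 col genes with the highest joint signal, in the joint ranking (circles) and in the overlapping regions of replicate 1 (triangles) and replicate 2 (squares). A missing circle means no joint region in the window, and a missing triangle or square means no region of that replicate overlapping the joint one. There are no marks at dpy-7, sqt-1 and col-19, which have no joint region. The highest is col-46 at 53.2, and bli-1 at 41.8 stands far above bli-2 at 14.8.

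The replicates gave little common order to the members. Of the 140 regions, 69 (49.3%) overlapped a region in both replicates, 26 in replicate 1 alone, 23 in replicate 2 alone and 22 in neither, and the share in both was 38.3% at other genes. Over the 69, replicate 1 ran from 3.38 to 29.4 with a median of 15.2, and replicate 2 from 6.16 to 28.4 with a median of 15.7. The Spearman correlation of the replicates' signals over these 69 regions was 0.0970, and it was 0.182 over 6122 regions at other genes, in points that share 2 libraries and base composition. Of the 28 members with no joint region, 16 had none in any of the 4 rankings.

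Members on different chromosomes had somewhat different medians. Collagen genes on II, 26 with a region, had a median of 27.4 beside 23.4 at other genes of II, while the 36 on IV had 19.2 beside 23 and the 25 on V had 19.3 beside 22.8. Medians were near those of the other genes on I (23.1 and 23.7), III (22.0 and 23.6) and X (24.8 and 24.4). Many collagen genes lie in clusters, and 53 members fell into 22 clusters with starts at most 5 kb apart. Their median signal was 24.7, beside 21.4 for members that stand alone. The cluster of 5 on X, col-167 to col-171, had a region at each gene, with signals from 25.2 to 37.2. The cluster of 4 on II, col-79, col-39, col-80 and bli-1, ran from 27.9 to 42.1. Neighbours can share reads, and 54 of the 140 summits lay in the window of another gene of any kind. No matching share for other genes' summits is given, so this count has no background.

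Some window summits lay in a neighbour's coding sequence, a placement for which no share at other genes is given. Of the 140 window summits, 20 lay in the member's own coding sequence, 4 in that of another collagen gene, 21 in that of a gene outside the family and 95 elsewhere. The 4, in the windows of col-159, col-44, bli-1 and col-39, had a median signal of 38.1 and a median GC content of 59.6%, against 21.4 and 37.2% for the 95. The letters under the bli-1 and col-39 summits show this. They are collagen-coding sequence of col-80 and col-79, and capitals mark each in-frame glycine codon (GGN).
bli-1, in col-80 (chrII:10707988-10708088, plus strand): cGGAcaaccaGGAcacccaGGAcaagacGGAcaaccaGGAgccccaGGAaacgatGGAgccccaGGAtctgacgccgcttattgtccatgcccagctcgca
col-39, in col-79 (chrII:10704180-10704280, plus strand): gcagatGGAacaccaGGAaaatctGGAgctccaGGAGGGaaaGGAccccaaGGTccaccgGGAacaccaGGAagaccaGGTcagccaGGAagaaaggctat
Of 33 whole codons, 8 in the first and 11 in the second code for glycine.

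Regions along the whole gene were compared next, a comparison chosen after values had been seen. In bins of 250 bp, the 250 bp just before the start held a summit at 24.4% of collagen genes and 26.4% of others, with medians of the highest signal of 14.2 and 18.2. From 500 to 749 bp after the start, the shares were 42.9% and 30.0%, and the medians 24.3 and 19.1. From 750 to 999 bp they were 41.1% and 30.0%, with medians of 26.2 and 19. By share and median, collagen genes were thus lower just before the start and higher in every bin from 0 to 999 bp. In the bin that starts at -500 bp their share was higher (29.8% and 26.9%) and their median lower (16.9 and 19.1). Shares further upstream also differed in both directions. They were 36.9% and 29.1% in the bin that starts at -1500 bp, and 19.6% and 28.7% in the one that starts at -1250 bp.

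**Figure D3:**
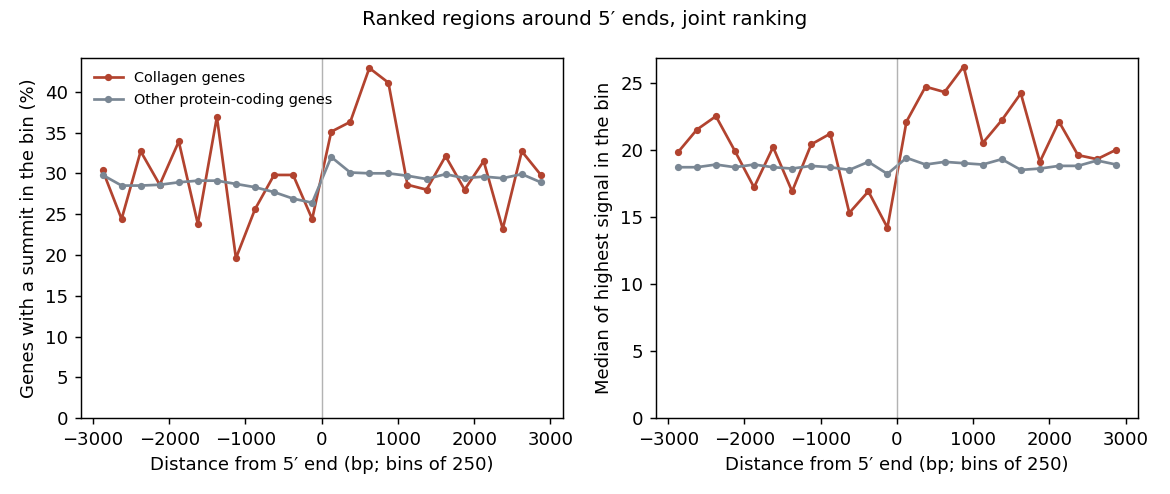
Share of genes with a summit (left, percent) and median of the highest signal (right) in bins of 250 bp by distance from the start of the gene (x axis, bp), for 168 collagen and 19805 other protein-coding genes. The collagen line is highest inside the gene, with 42.9% of genes from 500 to 749 bp and a median of 26.2 from 750 to 999 bp. It also varies upstream, with 36.9% in the bin that starts at -1500 bp and 19.6% in the next. The other genes stay between 26.4% and 32.0%.

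In coding sequence, 157 of 168 collagen genes (93.5%, interval 88.6% to 96.7%) had a ranked summit, against 74.5% of other genes, although the median coding length was 912 bp, beside 990.0 bp. There were 301 such regions, 1.82 per coding kb beside 1.47, and their median signal was 24.8 beside 19.8. In replicate 1's own list the medians were 13.2 and 10.8, and in replicate 2's 15.4 and 14.7. The direction was the same in both replicates, with a small difference in replicate 2. Both replicates overlapped 185 of the 301 regions. No matching share for other genes' coding regions is given, so this count has no background. Of the 301, 8 had an IDR of 0.05 or less, with a background of 1.03% over all coding regions.

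Base composition moved with this difference. The collagen coding regions had a median GC content of 54.1%, beside 40.2% at other genes. In regions of 50% to 55% GC the medians were 24.1 and 24.2, and of 40% to 45% GC they were 20.1 and 20.6. Collagen regions were higher from 45% to 50% (26.2 and 22.4), from 55% to 60% (29.2 and 26.2) and from 60% to 65% (28.0 and 25.3), where other genes gave 69 regions. From 35% to 40% they were lower (14.5 and 18.8). The difference in medians was 5.07 over all regions and 1.91 among regions of at least 50% GC. The part of GC content in it was not tested. Of the 301 regions, 92 aligned to more than 1 place, with a median signal of 26.1 beside 24.1 for the rest. No matching share for other genes' coding regions is given.

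**Figure D4:**
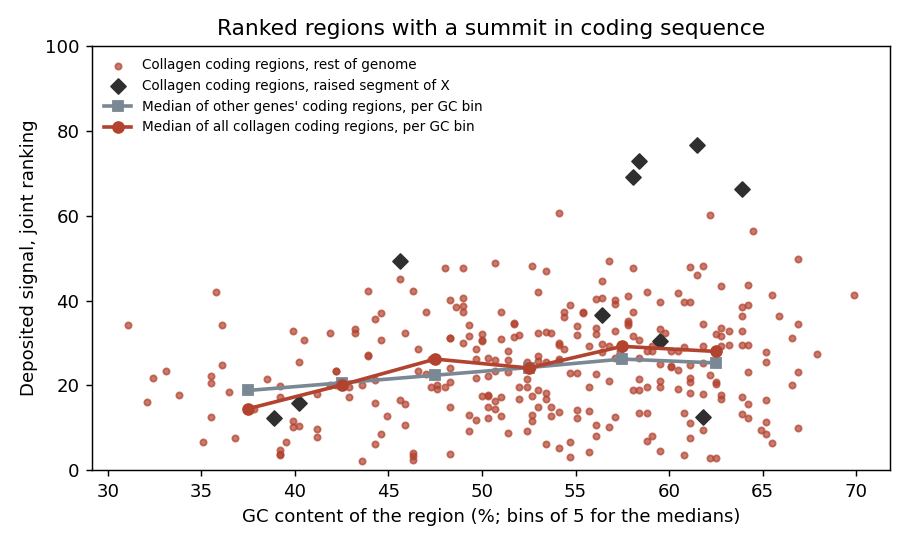
Deposited joint signal (y axis) of each collagen region with a summit in coding sequence against its GC content (x axis, percent), with medians in bins of 5 percentage points for collagen and other genes; diamonds are regions in the raised segment of X. The collagen median is below that of other genes from 35% to 40% GC (14.5 and 18.8), close to it from 50% to 55% (24.1 and 24.2) and above it from 55% to 60% (29.2 and 26.2), and 4 of the diamonds are the highest points, from 66.2 to 76.7.

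The genes of known role without a joint region in the window had one inside the gene. At sqt-1 a coding region had a joint signal of 48.9, with 22.9 in replicate 1 and 29.0 in replicate 2. At col-19 the highest coding signal was 29.8, with 34.7 and 19.5, and at dpy-7 it was 22.6, with 24.5 and 9.32. Each of these 3 genes thus had a coding region overlapped in both replicates, at joint IDRs of 0.113, 0.379 and 0.401. A ranked coding summit was also present at 74.5% of other genes. At dpy-10, whose window signal was 10.7, the highest coding signal was 44.7, with 22.7 and 19. At rol-6 it was 25.6, with 23.2 and 17.8.

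The highest coding signals were in a segment of X of 2.5 Mb that begins at 9.1 Mb, whose ranked signals are raised at many genes and whose bounds were set earlier on these same data. The segment holds 5 members, col-175, col-176, col-177, col-178 and col-179. At col-179 the highest coding signal was 76.7 (IDR 0.00653), with 31.7 in replicate 1 and 40.2 in replicate 2. At col-178 it was 69.1 (IDR 0.00383), with 38.8 and 36.3. Both genes lie side by side, their regions each aligned to 2 places in the genome, and both had regions in both replicates. At col-175 it was 72.9 (IDR 0.0188), with 39.5 in replicate 1 and no region in replicate 2, and at col-176 it was 66.2 (IDR 0.0156), with 43.4 and 41.7. At col-177 it was 36.7.

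The promoter windows of the same 5 genes mostly had low signals. These were 49.2 at col-176, 16.8 at col-175, 15.9 at col-179 and 9.01 at col-177, with no region at col-178, and the median was 16.4 beside 33.8 at 298 other genes of the segment. In coding sequence the median over 10 regions was 43.0, beside 28.6 over 931 regions of other genes there. The median GC content of these regions was 58.3% and 39.5%. Outside the segment the coding medians were 24.3 and 19.6, and 3 of 291 collagen regions (1.03%) had an IDR of 0.05 or less, beside 0.762% at other genes.

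The letters under the strongest coding summits are shown because they carry the highest collagen values and the collagen repeat itself. Each run has 50 bases on either side of the summit and is read on the coding strand, with in-frame glycine codons in capitals. The 4 genes of the X segment are followed by col-20, on II, as an example from outside it (signal 60.2, 19.2 in replicate 1 and 26.1 in replicate 2).
col-179 (chrX:11202035-11202135, plus strand): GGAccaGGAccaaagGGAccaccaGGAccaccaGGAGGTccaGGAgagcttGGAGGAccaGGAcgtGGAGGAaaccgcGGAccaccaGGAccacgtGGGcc
col-175 (chrX:9233868-9233968, minus strand): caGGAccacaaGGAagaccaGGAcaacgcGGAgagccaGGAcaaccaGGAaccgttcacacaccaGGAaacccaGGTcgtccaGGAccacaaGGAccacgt
col-178 (chrX:11199875-11199975, plus strand): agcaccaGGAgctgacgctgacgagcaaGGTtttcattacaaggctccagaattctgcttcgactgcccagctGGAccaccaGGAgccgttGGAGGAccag
col-176 (chrX:10078312-10078412, plus strand): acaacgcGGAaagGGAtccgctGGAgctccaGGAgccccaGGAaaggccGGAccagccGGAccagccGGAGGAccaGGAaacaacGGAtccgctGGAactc
col-20 (chrII:4870056-4870156, minus strand): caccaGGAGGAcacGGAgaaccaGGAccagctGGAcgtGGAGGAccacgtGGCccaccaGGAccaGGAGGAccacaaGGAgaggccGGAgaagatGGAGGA
Glycine codons made up 15 of 33 at col-179, 10 at col-175, 6 at col-178, 12 at col-176 and 15 at col-20. The run at col-178 thus held the fewest and those at col-179 and col-20 the most.

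The authors' thresholded lists held a few regions in the bodies of collagen genes. The joint list had 4 regions in 3 genes, col-178, col-179 and col-72, and the background was 0.596% of protein-coding genes. The conservative list had 7 regions in 6 genes, adding col-162, col-175 and col-176, with a background of 0.355%. The lists of the separate replicates had 0. Of the 5 collagen genes in the X segment, 2 were in the joint list, beside 40 of 387 other genes there, and 4 in the conservative list, beside 22 of 387. Outside the segment 1 joint and 2 conservative genes remained of 163 members (0.613% and 1.23%), beside 0.391% and 0.221% of other genes. The 2 regions at col-178 overlap each other and were counted separately, the weaker having a signal of 12.5.

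The strongest of these regions was the one at col-72 (chrII:3521423-3521718), with a joint signal of 88.9, an IDR of 0.00171, and 43.5 in replicate 1 and 49.2 in replicate 2. Its summit lay in an intron, 2626 bp after the gene's start, in a sequence of 50.7% GC that aligned to 2 places. It was the only thresholded body region of the 168 genes outside coding sequence. At col-162 (chrV:13442896-13443191) a coding region of 64.5% GC had a signal of 56.5 with 32.3 and 36.3, and stood in the conservative list but not the joint one.

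The other lists of cuticle formation had medians on either side of the 23.4 of other genes. Of 7 further cuticle collagen genes outside the rule, such as dpy-17 (35.5) and lon-3 (27.7), 5 had a region, with a median of 27.7. Of 13 genes of collagen processing and cross-linking, 11 had a window region and 4 of those were above the 90th percentile of other genes, beside the background of 10%. These were pdi-2, a protein disulfide isomerase subunit of prolyl hydroxylase, at 48.4, the prolyl hydroxylase gene dpy-18 at 45.3, the thioredoxin-like gene dpy-11 at 42.1 and the dual oxidase maturation factor gene doxa-1 at 39.5. The list's median was 24.1, and the hydroxylase gene phy-2 was at 15.2, the dual oxidase gene bli-3 at 13.1 and the protease gene bli-4 had no region. The list was thus spread widely about the median of other genes, and none of its members had a thresholded region or an IDR of 0.05 or less.

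Of 35 cuticlin genes, which encode zona pellucida domain proteins of the cuticle, 30 had a region, with a median of 26.0, and 2 were above the 90th percentile, cutl-11 (42.1) and cutl-19 (39). The 11 hypodermal regulators all had a region, with a median of 24.8. Among them myrf-2, a membrane-bound transcription factor gene, had 55.8 with 15.2 in replicate 1 and 45.6 in replicate 2 and an IDR of 0.0432, and nhr-25, a nuclear hormone receptor gene of moulting, had 40.3. The moulting regulator nhr-23 had 16.2 and the GATA factor gene elt-3 had 15.2. The regulators thus ranged from percentile 11.8 to 98.4. Of 9 precuticle genes, the lipocalin gene lpr-3 had 39 with an IDR of 0.0285 in its window, and the list's median was 13.3. The basement membrane collagens let-2 and emb-9, type IV chains made largely by muscle and gonad, had 18.4 and 15.4. As a contrast, the ribosomal protein genes had a median of 29.5, and 10 of 80 were in the joint thresholded list, beside 0 of 168 collagen genes.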

How the data were processed

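Whole L4 larvae were profiled by ChIP-seq in 2 biological replicates of 1 group, per the labels, so nothing below is a test between samples. The region lists were deposited by the authors on ce11, ranked or thresholded by IDR, per the file names; no aligner, caller or version is given in the sources used here. The deposited signal column holds each region's own peak-calling value, unscaled between lists. The deposited −log10 of the global IDR was turned back into an IDR. The deposited score, which rises as the IDR falls, enters no result. Read depth is unknown and no interval rests on it.

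The members and gene lists were chosen with earlier results of these data known. Genes named are the 12 with mutant names, the role groups, the 10 highest and 3 lowest signals and members with an IDR of 0.05 or less; the coding and gene-body comparisons, the other genes named with them and the sequences shown were chosen after their values were seen. Windows used Ensembl 115 models, and sequences and products RefSeq on the same assembly. Genome places are blastn 2.17.0 alignments of at least 100 bp at 80% identity. Intervals on shares of genes are exact Clopper-Pearson at 95%. The window and percentile steps were tested on simulated data. Python 3.11.15, NumPy 2.4.6, pandas 2.3.3, SciPy 1.17.1, Biopython 1.88 and matplotlib 3.10.9 were used. Coordinates are 1-based. The sequence at 1 further summit is not reported here.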

Additional observations from a re-analysis of the deposited data

How the results depend on the processing

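With 1 group no spread between conditions exists, and changes were read against the difference between the replicates. The thresholded count at promoters was 0 in every alternative run for it. The share of members with a region was 83.3%, beside 80.6% of other genes. It was 76.2% in the conservative ranking, beside 76.3%. With a replicate left out it was 58.3% to 59.5%, beside 52.8% to 57.6%. In a window of 500 bp before to 100 bp after the start it was 58.3%, and no share at other genes is given. With regions under the median signal left out it was 50.6%, or 85 of 168 genes, beside 10993 of 19805 other genes. The median percentile of 45.2 was 47.7 in the conservative ranking, 41.9 with regions of more than 1 genome place left out and 56.9 with regions under the median left out, and 44.0 to 47.4 with a replicate left out. The difference in medians, -1.16, was -0.557, -1.99 and 1.55 in the same settings and -0.747 without the X segment. With a replicate left out it was -0.899 to -0.392, on those lists' own scales. The direction of the difference thus turned when regions under the median signal were left out. That filter acts on the compared signal and kept fewer collagen genes with a region (60.7%) than other genes with a region (68.8%). The share above the 90th percentile was 4.08% to 8% with a replicate left out. The count at an IDR of 0.05, which was 1, was 0 in the narrow window, in the conservative ranking, with either replicate left out and at an IDR of 0.01.

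In coding sequence, alternatives were chosen after seeing the data. The median difference of 5.07 was 3.19 at a GC content of at least 45% and 1.91 at 50%. With a replicate left out it was 0.717 to 2.37, on those lists' own scales. The ratio of region densities, 1.24, was 1.48 to 1.57 and the share with a coding summit 78.6% to 82.1% with a replicate left out. The count of 3 genes with a thresholded body region was 6 in the conservative list, 0 with either replicate left out and 1 without the X segment. The median signal of the named genes, 31.0, was 23.5 for the region of lowest IDR and 39.6 in the conservative ranking. With a replicate left out it was 18.1 to 18.7, on those lists' own scales. The conservative ranking had no window region at bli-2, col-14, dpy-10, rol-6 and sqt-3, whose joint signals ran from 5.33 to 18.3. Most other named genes had the same signal in the joint and conservative rankings. Of the alternative values for the main results 42 stayed close and 35 moved; the cause was not tested. No paired analysis was possible because there is 1 group. Unknown read depth and 2 replicates limit all values.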
